A study of Bos grunniens with 6 samples.

Results

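The HOX and skeletal patterning genes were taken from a table of 15646 genes measured in cultured yak (Bos grunniens) hair follicle cells. A gene was chosen where its symbol began with HOX, where it was EN1, TBX15 or PITX1, or where its annotation carried the term embryonic skeletal system morphogenesis. The rule also named genes to leave out, and left out genes annotated to TGF-beta signalling. Together these exclusions removed 1 gene, which had a HOX symbol. By this rule 54 genes were found. They comprised 31 genes of the HOX clusters (11 HOXA, 7 HOXB, 6 HOXC and 7 HOXD), 3 TLX genes whose older symbols begin with HOX11, the 3 limb and trunk genes named above, and 17 further genes with the annotation term. The symbols were compared without regard to upper or lower case, since the table writes PITX1 as Bft. With case told apart the rule found 49 genes, leaving out HOXA9, HOXA11, HOXC5, HOXC8 and PITX1.

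HOX genes encode homeodomain transcription factors that lie in clusters called A to D, and genes with the same number in different clusters (paralogues) descend from a common ancestor. In vertebrate embryos low-numbered genes are switched on early and towards the head, and high-numbered genes later and towards the tail and the ends of the limbs. In human skin, fibroblasts grown from different body sites keep different HOX patterns in culture, so that HOX levels are read as a record of where a dermal cell came from. The other chosen genes act around limb, trunk and face patterning, as transcription factors, as signals and receptors, or as matrix of the early skeleton.

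Dermal papilla cells (DPC), labelled as dermal cells, form the mesenchymal core of the hair bulb, and the epithelial hair matrix cells (HMC) around that core proliferate to build the hair shaft. Both came from skin of wild-type yak and were grown in one medium with EGF (20 ng/mL), IGF1 (10 ng/mL) and 10% fetal bovine serum, and mRNA libraries were made for 3 cultures per cell type, labelled as biological replicates. The sources used here do not give the body site, the age or number of the animals or any pooling, so the p-values below measure the spread between these 6 samples. Values are FPKM, fragment counts adjusted for gene length and library size, which lets levels be compared between genes.

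Whole reads recovered from the FPKM steps came to 13.1 to 13.4 M per DPC library and 13.7 to 14.0 M per HMC library (M, mega). All 10 mesenchymal markers (VIM, COL1A1, COL3A1, CDH11, PDGFRB, LUM, DCN, FBLN1, THY1 and TWIST1) were higher in DPC, where they summed to 14492 to 14877 FPKM, against 526.5 to 626.9 FPKM in HMC. All 10 epithelial markers (KRT5, KRT7, KRT8, KRT18, KRT19, CDH1, EPCAM, ITGA6, GRHL2 and ESRP1) were lower in DPC, summing to 67.7 to 85.1 FPKM, against 13788 to 14184 FPKM in HMC. The labels and the defining markers therefore point the same way in all 6 libraries. The 5 endothelial markers summed to at most 0.271 FPKM in DPC, against 1.26 FPKM in HMC, the 3 melanocyte markers to at most 3.43 FPKM in DPC, against 6.45 FPKM in HMC, and the 5 immune markers to at most 12.3 FPKM in DPC, against 18.8 FPKM in HMC. The immune markers went in different directions. LAPTM5 averaged 9.46 FPKM in DPC, against 0.257 FPKM in HMC. CD14 averaged 2.47 FPKM in DPC, against 10.1 FPKM in HMC, and AIF1 0.0511 FPKM in DPC, against 6.48 FPKM in HMC. No mesenchymal or epithelial marker was at 0 in a whole group, and the melanocyte markers MLANA and SOX10 were listed at 0 in all DPC libraries. Of 11883 genes whose mean over all libraries reached 0.5 FPKM, 75.9% passed limma's test at an adjusted p under 0.05, 29.7% as higher in DPC and 46.2% as higher in HMC. The median log2 difference (DPC minus HMC) over those genes was −0.15, and −0.01 or 0.05 after median-of-ratios scaling or quantile normalization. The share of calls that were higher in DPC was 39.1%, and 49.2% or 53.8% with the same alternatives.

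All tested HOX genes of the B, C and D clusters in the chosen set were higher in DPC. The A cluster held genes called in either direction. Of the 54 genes, 38 reached the mean of 0.5 FPKM and were tested. In DPC 28 of these were higher, in HMC 6 (among them HOXA3, PITX1, FLVCR1 and MDFI), and 4 did not pass (HOXA4, HOXA5, WNT9A and FUZ), beside the background of 29.7% and 46.2% of all tested genes (75.9% in either direction). A difference of at least 2-fold was reached by 22 genes towards DPC and 3 towards HMC (11% and 16.1% of all tested genes, 27.1% together). The median log2 difference of the 38 was 1.38, against −0.15 over all tested genes. A gene could reach the mean of 0.5 FPKM through the cell type in which it was high, so these counts describe the tested genes and carry no test of the set. With no filter all 54 were tested, 34 were higher in DPC and 8 in HMC, beside 25.1% and 37.9% of the 15646 genes, or 63% in either direction. In bulk cultures fewer cells of a type and less RNA per cell cannot be told apart.

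Summed over the 31 genes, the HOX level averaged 134 ± 4.86 FPKM (SD) in DPC, against 22.8 ± 2.12 FPKM (SD) in HMC, so that HMC held 17% of the DPC level. The libraries gave 136, 128 and 137 FPKM in DPC, against 20.4, 24.4 and 23.5 FPKM in HMC, and the groups did not overlap. The clusters differed widely. HOXD summed to 33.8 ± 2.90 FPKM (SD) in DPC, against 0.595 ± 0.155 FPKM (SD) in HMC, which was 1.76% of the DPC level. HOXB summed to 26.3 ± 1.93 FPKM (SD) in DPC, against 1.87 ± 0.592 FPKM (SD) in HMC (7.09%), and HOXC to 56.3 ± 2.1 FPKM (SD) in DPC, against 7.65 ± 0.651 FPKM (SD) in HMC (13.6%). HOXA stood apart with 17.4 ± 1.88 FPKM (SD) in DPC, against 12.7 ± 0.751 FPKM (SD) in HMC (72.6%). These sums are descriptions without a test of their own, and each has n = 3 cultures per cell type.

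The make-up of the summed HOX level differed accordingly. HOXA made 13 ± 1.29% (SD) of it in DPC and 55.7 ± 1.97% (SD) in HMC. HOXD made 25.2 ± 1.46% (SD) in DPC and 2.59 ± 0.457% (SD) in HMC. HOXB made 19.7 ± 1.26% (SD) in DPC and 8.08 ± 1.91% (SD) in HMC, and HOXC made 42.1 ± 1.69% (SD) in DPC and 33.6 ± 0.614% (SD) in HMC. HOXC was thus the largest of these shares in DPC and HOXA the largest in HMC, in each of the 3 libraries of the cell type. The HOX gene left out by name belongs to the C cluster and is in none of these sums or shares. Which share would be the largest with it was not examined.

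**Figure D1:**
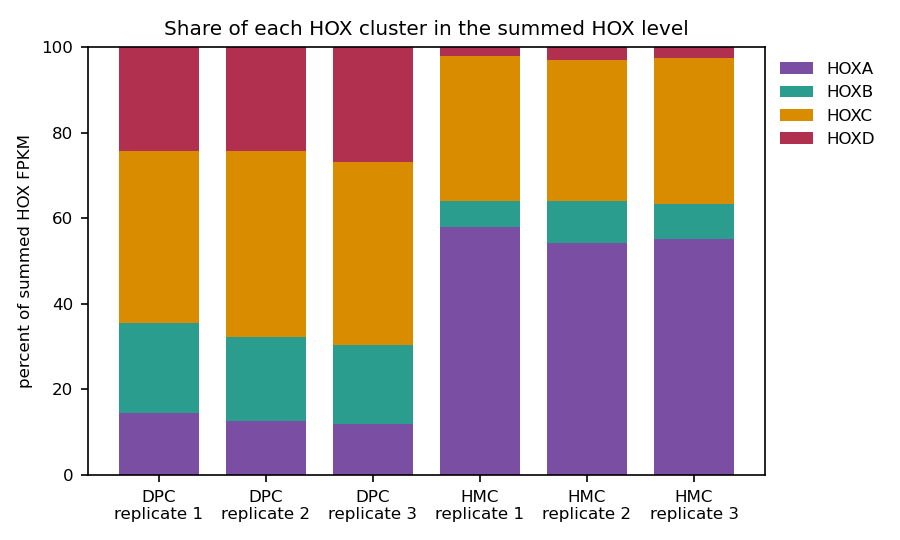
Stacked bars show the percent of the summed FPKM of the 31 HOX genes that fell to each cluster, 1 bar per library, with 3 DPC libraries on the left and 3 HMC libraries on the right. HOXA takes a mean of 13% in DPC and 55.7% in HMC, and HOXD 25.2% in DPC and 2.59% in HMC.

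By level, 20 of the chosen HOX genes averaged at least 1 FPKM in DPC, against 6 in HMC. Of these, 8 in DPC and 1 in HMC reached 5 FPKM, and 6 in DPC and none in HMC reached 10 FPKM. In DPC the order ran HOXC8 (21.4 ± 0.649), HOXD8 (18.2 ± 1.82), HOXC4 (14.1 ± 1.61), HOXC6 (14.0 ± 0.928), HOXD9 (11.6 ± 1.1), HOXB2 (10.3 ± 0.797) and HOXA9 (9.08 ± 1.95), all as mean ± SD of FPKM over 3 cultures. Libraries of HOXC4 and HOXC6 overlapped, as did those of HOXD9 and HOXB2 and of HOXB2 and HOXA9, while the other neighbours in this order did not. In HMC the order ran HOXA9 (5.18 ± 0.742), HOXA3 (3.42 ± 0.409), HOXC6 (2.81 ± 0.112), HOXC4 (1.43 ± 0.742), HOXC8 (1.33 ± 0.196) and HOXC9 (1.30 ± 0.152), of which the last 3 lay within each other's spread.

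**Figure D2:**
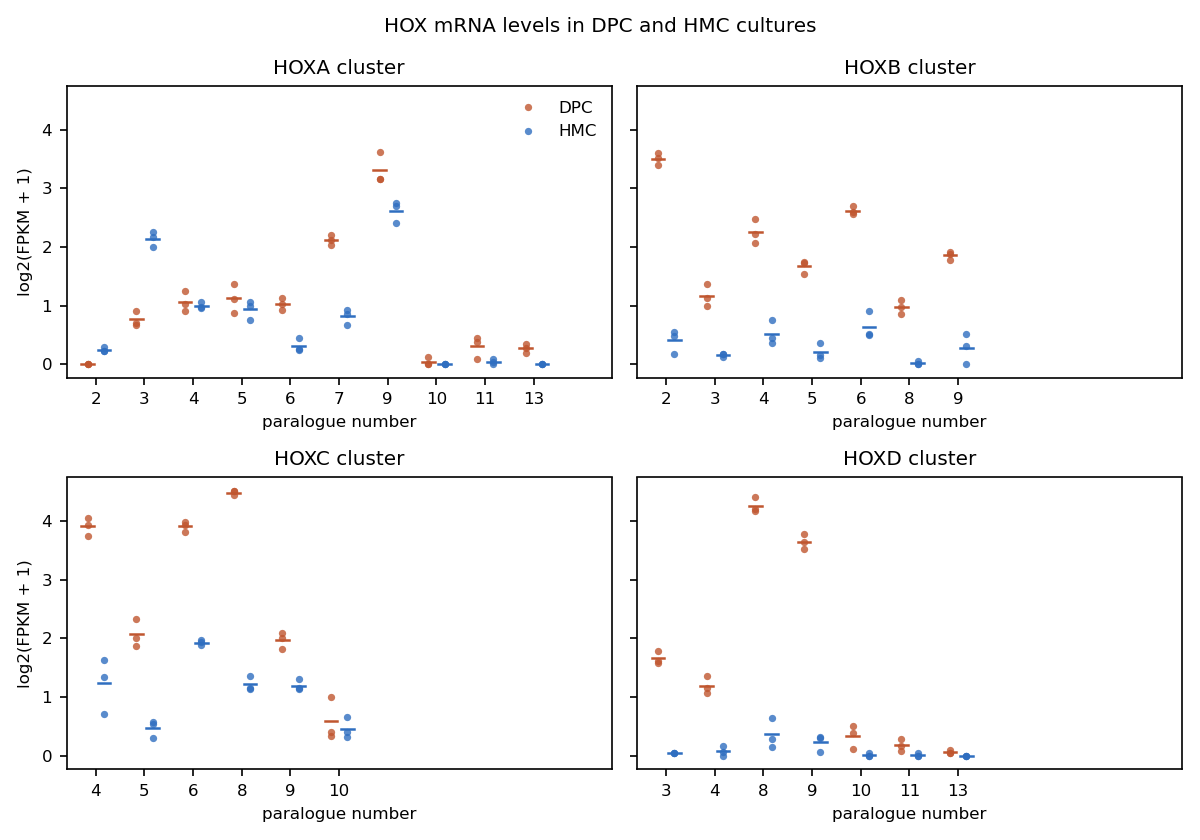
Each panel is a HOX cluster, with paralogue number on the horizontal axis and log2(FPKM + 1) on the vertical axis. Points are the 3 DPC libraries (left of each tick) and the 3 HMC libraries (right), and the short lines are their means. The DPC points lie above the HMC points for every HOXB and HOXD gene drawn, while HOXA2 and HOXA3 have the HMC points above.

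In the A cluster the direction varied. HOXA3, towards the low-numbered end, was lower in DPC. HOXA3 (ENSBGRG00000001999), needed for the thymus and throat in mouse, had 0.635, 0.599 and 0.887 FPKM in DPC, against 3.5, 3.79 and 2.98 FPKM in HMC. The HMC values were all above the DPC values, and the log2 difference was −1.37 (limma, SE 0.11, adjusted p = 6.15e-06). HOXA2 (ENSBGRG00000001989), which patterns the second pharyngeal arch in mouse, was too low to be tested, listed at 0 in all 3 DPC libraries and at 0.17 to 0.229 FPKM in HMC.

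In the middle of the A cluster the cell types overlapped. HOXA4 (HOX1D in the table, ENSBGRG00000002016), a gene of the neck region, had 0.887, 1.03 and 1.38 FPKM in DPC, against 0.943, 0.971 and 1.08 FPKM in HMC. Its log2 difference was 0.07 (limma, SE 0.11, adjusted p = 0.595). HOXA5 (ENSBGRG00000002031), needed for the lung and shoulder region in mouse, had 1.60, 1.17 and 0.838 FPKM in DPC, against 0.685, 0.985 and 1.1 FPKM in HMC, with a log2 difference of 0.19 (limma, SE 0.15, adjusted p = 0.270). Neither passed the test, and single libraries of the cell types crossed in both.

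Further along, HOXA6, HOXA7 and HOXA9 were higher in DPC. HOXA6 (HOX1B in the table, ENSBGRG00000002039), a trunk gene, had 0.902, 1.19 and 1.04 FPKM in DPC, against 0.358, 0.193 and 0.191 FPKM in HMC. HOXA7 (Hox-1.1 in the table, ENSBGRG00000002048), also of the trunk, had 3.11, 3.6 and 3.34 FPKM in DPC, against 0.807, 0.598 and 0.888 FPKM in HMC. Their log2 differences were 0.71 and 1.30 (limma adjusted p = 0.000284 and 4.30e-06), and in both genes the groups did not overlap. HOXA9 (Hox-1.7 in the table, ENSBGRG00000002058), a gene of the rear trunk that also acts in blood progenitors, had 11.3, 7.96 and 7.95 FPKM in DPC, against 4.33, 5.50 and 5.70 FPKM in HMC. It was the most abundant of the chosen HOX genes in HMC, at 57.0% of its DPC mean. The log2 difference was 0.70 (limma, SE 0.15, adjusted p = 0.00254). In the RefSeq annotation of assembly Bosgru_T2T1.0 the spans of HOXA3 and HOXA4, HOXA3 and HOXA5, and HOXA5 and HOXA6 overlap, as do those of HOXB8 and HOXB9 and of HOXD3 and HOXD4. The sources used here do not say how reads in the overlaps were assigned, and single values of those genes are uncertain.

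Every tested gene of the B cluster was higher in DPC. HOXB2 (HOX2H in the table, ENSBGRG00000021425), which acts in the facial nerve region of the mouse hindbrain, had 11.1, 10.4 and 9.49 FPKM in DPC, against 0.136, 0.403 and 0.465 FPKM in HMC. The libraries of the cell types lay far apart, and the log2 difference was 3.09 (limma, SE 0.12, adjusted p = 5.28e-08). HOXB6 (Hox-2.2 in the table, ENSBGRG00000021579), a trunk gene, had 5.03, 4.89 and 5.51 FPKM in DPC, against 0.424, 0.868 and 0.415 FPKM in HMC. HOXB4 (ENSBGRG00000021501), which expands blood stem cells when supplied in excess, had 4.59, 3.17 and 3.66 FPKM in DPC, against 0.280, 0.691 and 0.365 FPKM in HMC. The log2 differences of both were 1.98 and 1.73, and again no library of one cell type reached the other.

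The remaining B genes were less abundant in DPC. HOXB9 (HOX2E in the table, ENSBGRG00000021683), which shapes the ribs in mouse, had 2.78, 2.44 and 2.67 FPKM in DPC, against 0, 0.249 and 0.431 FPKM in HMC. HOXB5 (Hox-2.1 in the table, ENSBGRG00000021555), which positions the shoulder girdle in mouse, had 2.33, 1.91 and 2.35 FPKM in DPC, against 0.283, 0.0800 and 0.119 FPKM in HMC. HOXB3 (Hox-2.7 in the table, ENSBGRG00000021464), a hindbrain gene, had 1.60, 1.2 and 0.986 FPKM in DPC, against 0.127, 0.0941 and 0.124 FPKM in HMC. The log2 differences were 1.58, 1.46 and 1.01, and the adjusted p of the 6 tested B genes lay between 5.28e-08 and 6.73e-05 (limma). HOXB8 (HOX2D in the table, ENSBGRG00000021618) had a mean just under the limit for testing, at 0.808 to 1.13 FPKM in DPC, against 0 to 0.0454 FPKM in HMC.

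All 5 tested genes of the C cluster were higher in DPC, and 3 of them were among the 4 most abundant chosen HOX genes there. HOXC8 (Hox-3.1 in the table, ENSBGRG00000003899), which patterns the thorax in mouse, had 21.7, 20.7 and 21.9 FPKM in DPC, against 1.2, 1.23 and 1.56 FPKM in HMC. It was the chosen HOX gene with the highest mean in DPC, with a log2 difference of 3.27 (limma, SE 0.08, adjusted p = 4.56e-09). HOXC4 (Hox-3.5 in the table, ENSBGRG00000003972), a gene of the neck and upper trunk, had 12.4, 14.3 and 15.7 FPKM in DPC, against 0.642, 2.12 and 1.54 FPKM in HMC. HOXC6 (HOX3C in the table, ENSBGRG00000003924), of the thorax, had 14.9, 14.2 and 13.1 FPKM in DPC, against 2.81, 2.92 and 2.7 FPKM in HMC. On the log2 scale they differed by 2.68 (limma, SE 0.22, adjusted p = 7.09e-06) and 1.98 (limma, SE 0.07, adjusted p = 5.22e-08). The HMC libraries of HOXC4 were widely spread, with a coefficient of variation of 51.9%, the largest among the 17 genes with an HMC mean of at least 1 FPKM, while those of HOXC6 were close together.

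HOXC5 and HOXC9 were the less abundant tested C genes in DPC. HOXC5 (Hox-3.4 in the table, ENSBGRG00000003993) had 2.66, 3.01 and 4.03 FPKM in DPC, against 0.464, 0.229 and 0.499 FPKM in HMC, a log2 difference of 1.59. HOXC9 (Hox-3.2 in the table, ENSBGRG00000003819), which sets thoracic motor neuron identity in mouse, had 2.52, 3.27 and 3.00 FPKM in DPC, against 1.2, 1.22 and 1.47 FPKM in HMC. Its HMC mean was 44.3% of its DPC mean and its log2 difference 0.77 (limma, SE 0.10, adjusted p = 0.000166). The groups did not overlap in either gene. HOXC10 (ENSBGRG00000003864), of the lower trunk, was too low to be tested and overlapped, at 0.270 to 1.00 FPKM in DPC, against 0.252 to 0.580 FPKM in HMC.

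The D cluster, with the lowest summed HMC level relative to DPC of the clusters, had all 4 tested genes higher in DPC. HOXD8 (HOX4E in the table, ENSBGRG00000017045) had 17.3, 17.1 and 20.3 FPKM in DPC, against 0.115, 0.566 and 0.224 FPKM in HMC. HOXD9 (HOX4C in the table, ENSBGRG00000017014), a gene of the limb and rear trunk, had 11.5, 10.5 and 12.7 FPKM in DPC, against 0.245, 0.0404 and 0.240 FPKM in HMC. Each HMC library held less than 1 FPKM of either gene, and the log2 differences were 3.90 (limma, SE 0.14, adjusted p = 3.5e-08) and 3.42 (limma, SE 0.11, adjusted p = 1.76e-08). HOXD3 (HOX1D in the table, ENSBGRG00000017255), of the upper neck vertebrae in mouse, had 2.44, 2.08 and 1.98 FPKM in DPC, against 0.0355, 0.0350 and 0.0347 FPKM in HMC, and each HMC library rested on 1 recovered read. HOXD4 (ENSBGRG00000017167), a gene of the neck vertebrae that responds to retinoic acid, had 1.11, 1.22 and 1.56 FPKM in DPC, against 0, 0.0522 and 0.129 FPKM in HMC. Their log2 differences were 1.61 and 1.11 (limma adjusted p = 7.75e-07 and 2.40e-05). A pseudocount of 1 FPKM compresses differences of genes this low, and with a pseudocount of 0.1 FPKM the log2 differences of HOXD3, HOXD8 and HOXD9 were 4.06, 5.67 and 5.52. The table gives the name HOX1D to both HOXD3 and HOXA4, and they were told apart by annotation terms that HOXD3 shares with HOXA3 and HOXB3.

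**Figure D3:**
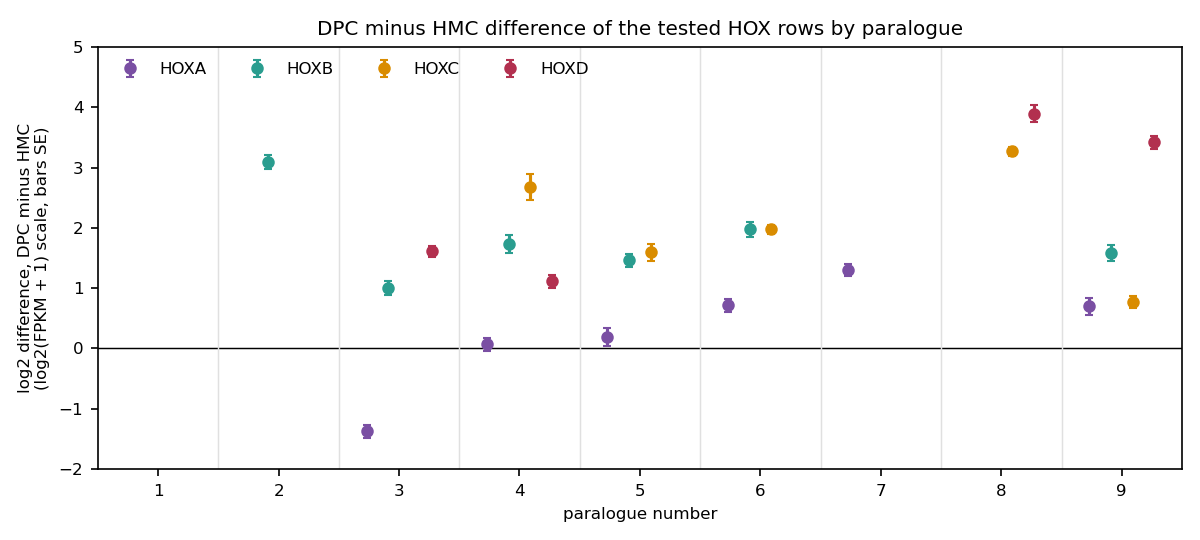
Points show the log2 difference, DPC minus HMC, on the log2(FPKM + 1) scale for 21 of the 22 tested HOX genes, placed by paralogue number and coloured by cluster, with bars for the SE. HOXA3 lies below 0, HOXA4 and HOXA5 lie at 0.07 and 0.19, and the other 18 lie above these, up to 3.90 for HOXD8.

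Read by paralogue instead of cluster, the summed level was highest at paralogue 8 in DPC (40.6 FPKM, against 1.65 FPKM in HMC) and at paralogue 9 in HMC (26.2 FPKM in DPC, against 6.88 FPKM in HMC). Paralogue 3 summed to 4.13 FPKM in DPC, against 3.57 FPKM in HMC, with HOXB3 and HOXD3 making up most of it in DPC and HOXA3 most of it in HMC. Of the 24 genes with paralogue numbers 1 to 9, 22 were tested. Among them 18 were called towards DPC and 2 towards HMC, beside 29.7% and 46.2% of all tested genes (75.9% in either direction). The 7 genes with numbers 10 to 13, which pattern the lower trunk and the ends of the limbs, were all too low to be tested. Of these HOXA13, HOXD13 and HOXA10 (HOX1H in the table, ENSBGRG00000002072) were listed at 0 in all 3 HMC libraries. In DPC, HOXA11 (Hox-1.9 in the table, ENSBGRG00000002077) reached 0.369 FPKM and HOXD10 (HOX4D in the table, ENSBGRG00000016979) 0.423 FPKM in replicate 1, where HOXA13 (HOX1J in the table, ENSBGRG00000002092) was at 0.278 FPKM, and HOXD11 (HOX4F in the table, ENSBGRG00000016923) reached 0.223 FPKM in replicate 3. HOXA10 was at 0.0843 FPKM in 1 DPC library, resting on 1 recovered read, and HOXD13 (ENSBGRG00000016836) rested on 1 or 2 recovered reads per DPC library. With no filter 4 of the 7 were called higher in DPC and 3 were not called, beside 25.1% of all genes higher in DPC and 63% called in either direction. HOX genes outside the 31 were not analysed here.

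EN1 and TBX15, genes of limb and trunk position, were strongly higher in DPC. EN1 (ENSBGRG00000003115), a homeodomain factor of the ventral limb that also marks a lineage of dermal fibroblasts in mouse, had 43.2, 41.6 and 43.7 FPKM in DPC, against 1.84, 1.66 and 2.08 FPKM in HMC. TBX15 (TBX14 in the table, ENSBGRG00000012008), a T-box factor that sets the pattern of the trunk dermis and coat in mouse, had 29.0, 27.5 and 28.4 FPKM in DPC, against 0.342, 0.478 and 0.919 FPKM in HMC. The groups lay far apart in both, with log2 differences of 3.94 (limma, SE 0.07, adjusted p = 8.89e-10) and 4.23 (limma, SE 0.13, adjusted p = 1.46e-08). PITX1 (Bft in the table, ENSBGRG00000002014), which sets hindlimb identity, went the other way with 0.336, 0.400 and 0.395 FPKM in DPC, against 1.75, 1.89 and 2.19 FPKM in HMC. All 3 HMC libraries were above the DPC libraries, with a log2 difference of −1.09 (limma, SE 0.09, adjusted p = 9.89e-06).

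The TLX genes, homeobox genes outside the clusters, were low in both cell types and none was tested. TLX1 (HOX11 in the table, ENSBGRG00000025436), needed for the spleen in mouse, was at 0 to 0.0408 FPKM in DPC, against 0 to 0.156 FPKM in HMC. TLX2 (HOX11L1 in the table, ENSBGRG00000006889), a gene of the enteric nerves, was listed at 0 in all DPC libraries and at 0.169 to 0.335 FPKM in HMC. TLX3 (HOX11L2 in the table, ENSBGRG00000017540), which selects neuron types, was at 0.185 to 0.641 FPKM in DPC, against 0.441 to 0.715 FPKM in HMC.

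Among the 17 further genes with the annotation term, 13 were tested, with 8 calls higher in DPC and 3 higher in HMC, beside 29.7% and 46.2% of all tested genes. The transcription factors differed widely in level. PRRX2 (Prx2 in the table, ENSBGRG00000019047), a homeobox gene of limb and face mesenchyme, had 696, 635 and 651 FPKM in DPC, against 42.8, 42.9 and 49.99 FPKM in HMC. It had the highest mean of the 54 genes in DPC, and a log2 difference of 3.84 (limma, SE 0.07, adjusted p = 6.42e-10). SOX11 (Sox-11 in the table, ENSBGRG00000015914), an HMG-box factor of embryonic tissues, had 8.30, 8.59 and 7.38 FPKM in DPC, against 0.161, 0.265 and 0.419 FPKM in HMC. OSR2 (ENSBGRG00000004042), a zinc finger factor of palate and tooth mesenchyme, had 8.51, 7.11 and 8.99 FPKM in DPC, against 0.864, 1.41 and 1.77 FPKM in HMC. The log2 differences were 2.83 and 1.98, and no library of one cell type reached the other.

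The other transcription factors given here were too low to be tested. GSC (Gsc in the table, ENSBGRG00000016360), a gene of the embryonic organiser and the jaw, was at 0.255 to 0.303 FPKM in DPC and listed at 0 in all HMC libraries. SIX2 (Six2 in the table, ENSBGRG00000006516), of kidney precursors, and EYA1 (ENSBGRG00000012869), a transcriptional cofactor, stayed at or below 0.164 FPKM in every library, and MYF5 (ENSBGRG00000003759), of muscle precursors, was at 0.0876 FPKM in 1 DPC library and listed at 0 elsewhere.

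The matrix and signalling genes held the largest single difference. COL11A1 (COLL6 in the table, ENSBGRG00000009561), a fibrillar collagen of cartilage, had 141, 151 and 143 FPKM in DPC, against 0.922, 0.768 and 0.914 FPKM in HMC. The HMC mean was 0.599% of the DPC mean, and the log2 difference of 6.29 was the largest among the 38 tested genes (limma, SE 0.06, adjusted p = 5.69e-11). PDGFRA (PDGFR2 in the table, ENSBGRG00000024258), the receptor for PDGF ligands on mesenchymal cells, had 27.7, 25.4 and 24.0 FPKM in DPC, against 0.508, 0.603 and 0.682 FPKM in HMC, with a log2 difference of 4.06 (limma, SE 0.08, adjusted p = 1.47e-09). WNT9A (Wnt14 in the table, ENSBGRG00000003023), a ligand of forming joints, had 1.76, 2.42 and 3.01 FPKM in DPC, against 2.51, 2.35 and 1.94 FPKM in HMC. These libraries overlapped and the difference of 0.04 did not pass (limma, SE 0.14, adjusted p = 0.791).

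MDFI was the member with the largest difference towards HMC. MDFI (ENSBGRG00000022743), an inhibitor of myogenic bHLH factors, had 2.71, 2.68 and 3.14 FPKM in DPC, against 69.1, 62.9 and 62.4 FPKM in HMC. Every HMC library was far above the DPC libraries, and the log2 difference was −4.10 (limma, SE 0.07, adjusted p = 7.12e-10). FLVCR1 (FLVCR in the table, ENSBGRG00000020614), a membrane transporter linked to heme and choline, had 6.40, 6.30 and 5.64 FPKM in DPC, against 9.96, 9.17 and 9.69 FPKM in HMC, a log2 difference of −0.58 (limma adjusted p = 0.000125) with no overlap.

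PCGF2 and FUZ were expressed at similar orders of magnitude in both cell types. PCGF2 (MEL18 in the table, ENSBGRG00000014863), a Polycomb subunit whose loss shifts vertebral identity in mouse, had 33.4, 33.1 and 33.2 FPKM in DPC, against 24.4, 23.5 and 26.9 FPKM in HMC. It was higher in DPC without overlap, by a log2 difference of 0.40 (limma, SE 0.06, adjusted p = 0.000348). FUZ (FY in the table, ENSBGRG00000022030), a planar polarity protein needed for cilia, had 1.91, 1.76 and 2.03 FPKM in DPC, against 1.68, 1.57 and 1.60 FPKM in HMC. The DPC libraries lay above the HMC libraries, but the difference of 0.15 did not pass (limma adjusted p = 0.127). FUZ passed after median-of-ratios scaling (adjusted p = 0.0222), after quantile normalization (adjusted p = 0.0161) and with a prior variance without trend (adjusted p = 0.0478).

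**Figure D4:**
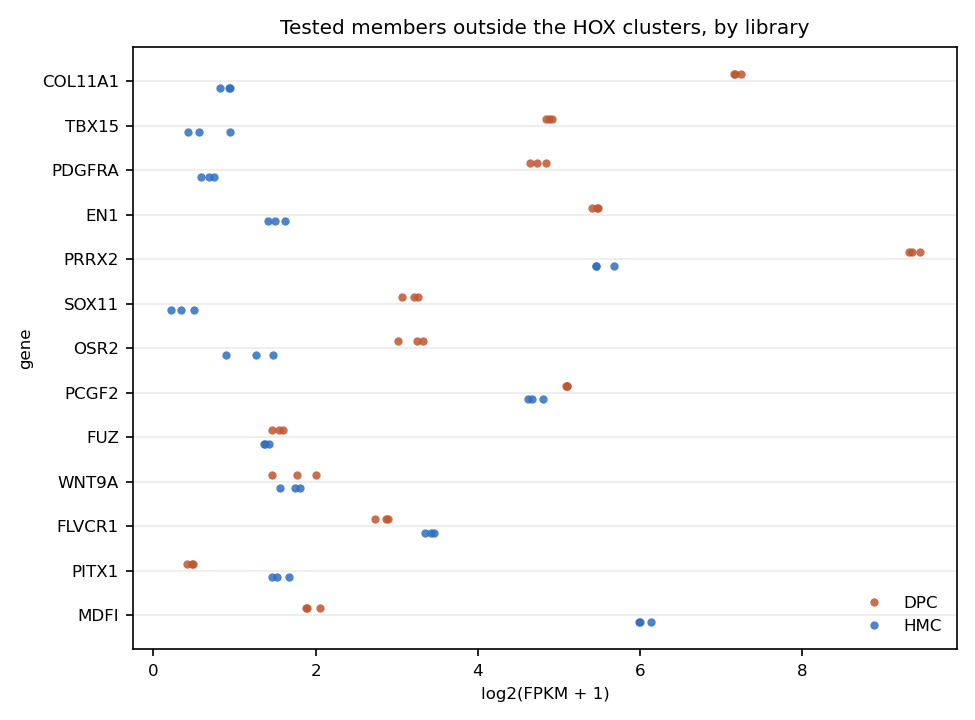
Points show log2(FPKM + 1) on the horizontal axis in each of 3 DPC and 3 HMC libraries for 13 of the 16 tested genes outside the HOX clusters, ordered with the largest difference (DPC minus HMC) at the top. COL11A1, TBX15, PDGFRA and EN1 have the widest gaps with DPC to the right, and MDFI has the widest gap with HMC to the right.

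Over all 54 genes, 36 had every DPC library above every HMC library, 8 had every HMC library above, and 10 overlapped. Among all 15646 genes, 27.2% had the DPC libraries above without overlap and 39.8% the HMC libraries. The coefficient of variation had a median of 8.50% over the 34 genes with a DPC mean of at least 1 FPKM, between 0.486% for PCGF2 and 31.6% for HOXA5. Over the 17 genes with an HMC mean of at least 1 FPKM the median was 11.5%, between 3.6% for FUZ and 51.9% for HOXC4.

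Genes that were higher in DPC had very different HMC levels. The HMC mean of the 10 mesenchymal markers was between 0.764% (TWIST1) and 6.97% (VIM) of their DPC mean, with a median of 1.54%. For the 28 members higher in DPC it lay between 0.599% (COL11A1) and 75% (PCGF2), with a median of 8.88%. Of these 28, 1 lay below the range of the markers, 11 within it and 16 above it. The upper end of that range was set by VIM alone, and the next marker was COL3A1 at 4.08%. HOXD4, HOXC8, EN1 and PRRX2 lay between COL3A1 and VIM. The 16 above comprised 12 HOX genes and 4 others (among them OSR2 and PCGF2), and the 11 within were HOXD3 (1.62%), HOXD4 (4.67%), HOXD8 (1.65%), HOXD9 (1.51%), HOXB2 (3.24%), HOXC8 (6.21%), EN1 (4.34%), TBX15 (2.05%), PRRX2 (6.85%), SOX11 (3.48%) and PDGFRA (2.32%). The order of the HMC libraries was counted for the 28 members only and not over all genes. HMC replicate 3 was the highest of the HMC libraries for 16 of the 28 and replicate 1 the lowest for 14. The summed mesenchymal markers came to 544.1, 526.5 and 626.9 FPKM in HMC replicates 1, 2 and 3, so that the highest library was the same and the lowest was not. VIM made up most of these sums, at 366.1, 352.9 and 433.9 FPKM. Taken singly, CDH11, DCN and TWIST1 were lowest in HMC replicate 1 and the other markers in HMC replicate 2. What part mesenchymal cells in the HMC cultures have in these levels was not tested. Leaving out HMC replicate 3 gave 29 calls higher in DPC and 6 higher in HMC among the 54 genes.

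**Figure D5:**
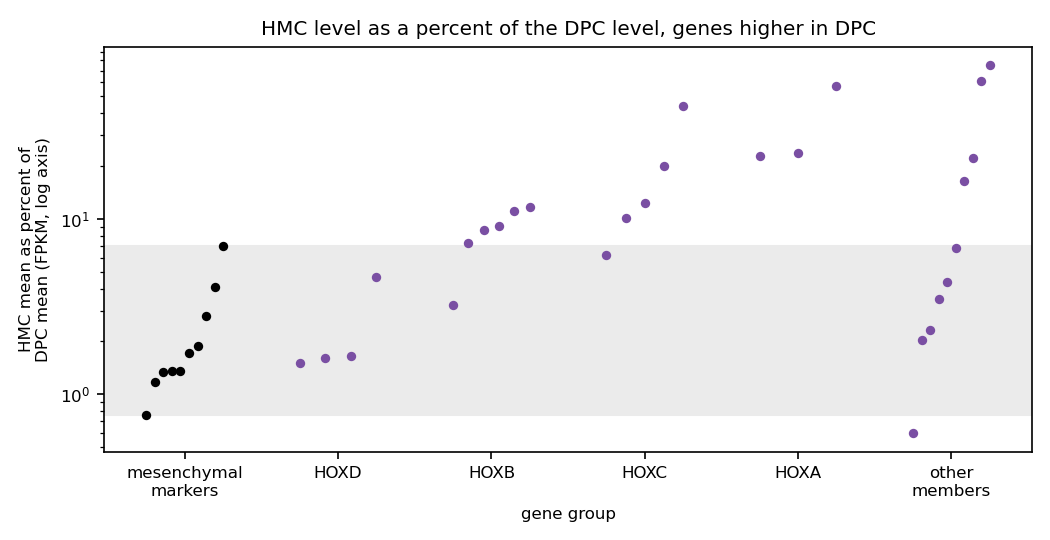
Points show the HMC mean as a percent of the DPC mean (FPKM, log axis) for the 10 mesenchymal markers and for the 28 members higher in DPC, grouped by HOX cluster or as other members, with the range of the markers shaded. The HOXD genes lie inside the shaded range, the HOXA genes lie above it, and the other members run from 0.599% to 75%.

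HOX proteins bind DNA with partners of the PBX, MEIS and PKNOX families, and 6 of 8 such genes were tested. Of these 3 were higher in DPC and 3 in HMC, beside 29.7% and 46.2% of all tested genes (75.9% in either direction). PBX2 (14.3 ± 0.589 FPKM in DPC, against 32.4 ± 0.714 FPKM in HMC, each with its SD over 3 cultures) and PBX3 (4.92 ± 0.179 FPKM in DPC, against 6.07 ± 0.695 FPKM in HMC) were among 3 genes higher in HMC. Their log2 differences were −1.12 and −0.25 (limma adjusted p = 2.7e-07 and 0.0318). MEIS1 (3.89 ± 0.262 FPKM in DPC, against 0.733 ± 0.235 FPKM in HMC), MEIS3 (4.84 ± 0.569 FPKM in DPC, against 3.71 ± 0.390 FPKM in HMC) and PKNOX1 (6.35 ± 0.460 FPKM in DPC, against 5.20 ± 0.599 FPKM in HMC) were higher in DPC. Log2 differences were 1.5, 0.31 and 0.25 (limma adjusted p = 4.84e-06, 0.0241 and 0.0406). The median over the 6 was −0.00137, against −0.15 over all tested genes. PBX3 did not pass after median-of-ratios scaling (adjusted p = 0.255) or quantile normalization (adjusted p = 0.346). The calls on PBX3, MEIS3 and PKNOX1 were narrow, and without DPC replicate 3 or without HMC replicate 3 the list held 3 calls, 1 of them higher in DPC.

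Polycomb and trithorax proteins keep HOX clusters silent or active. Leaving out PCGF2, which was counted among the members, the list held 25 genes with a matching row, and all were tested. Of these 9 were higher in DPC, 14 in HMC and 2 were not called, beside 29.7% and 46.2% of all tested genes, with a median log2 difference of −0.19. The largest differences were in JARID2 (0.807 ± 0.188 FPKM in DPC, against 6.08 ± 0.893 FPKM in HMC, each with its SD over 3 cultures), a subunit that guides the Polycomb methylating complex, in CBX6 (7.13 ± 1.12 FPKM in DPC, against 25.5 ± 1.49 FPKM in HMC) and in CBX7 (1.62 ± 0.153 FPKM in DPC, against 5.23 ± 0.808 FPKM in HMC), which read its mark. The 3 log2 differences were −1.97, −1.71 and −1.24 (limma adjusted p = 1.30e-06, 1.36e-06 and 1.35e-05). Most of the other calls were small. After median-of-ratios scaling or quantile normalization 6 genes in place of 14 were higher in HMC. Those higher in DPC numbered 11 in place of 9 after median-of-ratios scaling. PHC2, the most abundant, averaged 60.3 ± 1.87 FPKM in DPC, against 66.5 ± 0.722 FPKM in HMC, with a log2 difference of −0.14 that turned to 0.02 and 0.13 with those scalings.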

How the data were processed

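RNA of 3 DPC and 3 HMC cultures was measured. Per the labels' protocols, Trizol was used for extraction and a TruSeq kit for stranded mRNA libraries. Trimmomatic, HISAT2 2.2.1.0 and DESeq 1.20.0 appear in the submitters' processing notes, without their roles. The sources used here do not give the read counter, genome build or annotation, and no coordinates are printed. The authors deposited FPKM for 15646 genes, which corrects for gene length and mapped fragments but not for RNA composition. For 100% of genes all values came out as whole numbers of 1 smallest unit per library (relative tolerance 1e-09), and the recovered reads are lower limits, known up to a common factor per gene. FPKM values of low genes therefore rest on few reads.

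Older symbols of the table were matched to current ones through the table's own annotation and the RefSeq names of assembly Bosgru_T2T1.0, and the table's spelling is printed beside each member. Of the limb, trunk and craniofacial, retinoic acid, Polycomb and trithorax, and cofactor lists, genes with no matching row were not analysed here.

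The test was limma 3.58.1 (R 4.3.3), two-sided, on log2(FPKM + 1) values, with the prior variance allowed to follow the mean. It was run on the 11883 genes whose mean reached 0.5 FPKM, with Benjamini-Hochberg adjustment over all of them and a threshold of 0.05. On this scale the change of low genes is understated. Single members and all lists were read from that fit. Members with a mean of at least 1 FPKM in either cell type are given in every library, the others by range, and each list by its 3 called genes of largest difference and its most abundant gene. The members and lists were chosen with earlier results of these data known. Some genes that these rules select are not reported here by name and not drawn by name, though they stay in counts and sums. The procedure was tested on simulated data. Tables and figures were made with Python 3.11.15, numpy 2.4.6, pandas 2.3.3 and matplotlib 3.10.9.

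The alternatives were a pseudocount of 0.1 FPKM, no filter, a filter at 5 FPKM, median-of-ratios scaling, quantile normalization, limma-voom on recovered reads, a block for the replicate number, a prior variance without trend, and leaving out each replicate. Comparing symbols with case told apart was chosen after seeing the data.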

Additional observations from a re-analysis of the deposited data

How the results depend on the processing

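Of 38 tested members, 34 kept both their call and their direction under all 14 alternatives that could test them. Among the 4 exceptions were FUZ, described above, and HOXA4 and WNT9A, whose small differences did not pass in any setting and changed sign when a replicate was left out (HOXA4 between −0.0285 without DPC replicate 3 and 0.140 without DPC replicate 1, WNT9A between −0.0831 without DPC replicate 3 and 0.186 without DPC replicate 1, and −0.0299 without HMC replicate 3). With a filter at a mean of 5 FPKM, fewer genes were tested and 16 members were called, 14 higher in DPC and 2 in HMC. That filter also left 1 cofactor call higher in DPC, and 11 calls among the other position factors, 6 higher in DPC and 5 in HMC. Leaving out each replicate in turn gave 34 to 35 member calls, 28 to 29 higher in DPC and 6 in HMC, and 8554 to 8751 calls over all genes. The cofactor list gave 3 to 5 calls when a replicate was left out, 1 to 2 of them higher in DPC. Polycomb and trithorax calls higher in HMC numbered 6 with median-of-ratios scaling and 6 with quantile normalization. Calls of that list higher in DPC numbered 11 with median-of-ratios scaling. With case told apart 30 members were called, 25 higher in DPC and 5 in HMC.

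The same replicate numbers stand in both cell types, and deviations of same-numbered samples from their group means correlated at 0.0230, 0.0337 and 0.00635, too weakly to pair the samples. With the replicate block 34 members (28 higher in DPC, 6 in HMC) and 8924 genes were called. DPC replicate 3 correlated best with HMC replicate 2. Most HOX levels in HMC rest on few recovered reads, which limits their precision.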

Other observations

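Retinoic acid is made from vitamin A and regulates HOX genes in embryos, and 11 genes of its supply and receptors were tested. Of these 5 were higher in DPC, 4 were higher in HMC and 2 did not pass, beside 29.7% and 46.2% of all tested genes. ALDH1A3, an enzyme that makes retinoic acid, had the highest mean of the list in HMC and over all 6 libraries, though not in DPC, with 2.85, 2.75 and 2.54 FPKM in DPC, against 303, 298 and 262 FPKM in HMC, a log2 difference of −6.28 (limma adjusted p = 9.40e-11). RARB, a retinoic acid receptor that is itself induced by retinoic acid, averaged 1.26 ± 0.0585 FPKM in DPC, against 13.5 ± 0.162 FPKM in HMC (SD over 3 cultures each), a log2 difference of −2.68 (limma adjusted p = 4.93e-09). RBP4, which carries vitamin A, averaged 230.0 ± 11.9 FPKM in DPC, against 41.0 ± 4.62 FPKM in HMC (SD over 3 cultures each), a log2 difference of 2.46 (limma adjusted p = 2.62e-08).

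A further list held other factors of limb, trunk and face position. Of 22 tested, 11 were higher in DPC, 9 in HMC and 2 did not pass, beside 29.7% and 46.2% of all tested genes. IRX4, an Iroquois homeobox gene, had the largest difference of the list, at 0.0332, 0.135 and 0 FPKM in DPC, against 20.3, 19.6 and 19.2 FPKM in HMC (log2 difference −4.30, limma adjusted p = 9.04e-10). TWIST2, a bHLH factor of the dermis, averaged 85 ± 3.90 FPKM in DPC, against 4 ± 1.24 FPKM in HMC, and HAND2, a bHLH factor of limb and heart, averaged 20.2 ± 1.30 FPKM in DPC, against 0.383 ± 0.246 FPKM in HMC (SD over 3 cultures each). Their log2 differences were 4.14 and 3.95 (limma adjusted p = 8.32e-08 and 3.02e-08). PRRX1, the relative of PRRX2, had the highest mean of the list in DPC and over all 6 libraries, though not in HMC, and averaged 354 ± 7.25 FPKM in DPC, against 25.8 ± 0.95 FPKM in HMC (SD over 3 cultures each), a log2 difference of 3.73 (limma adjusted p = 9.92e-11).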
